A study of Mus musculus with 2 samples.

Results

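Growth hormone acts on the liver through a short chain of proteins, and the transcripts of 10 genes of this chain were followed here: *Ghr*, *Jak2*, *Stat5a*, *Stat5b*, *Socs2*, *Cish*, *Igf1*, *Igfals*, *Bcl6* and *Cux2*. They were chosen by gene symbol out of 32285 genes in the matrices, and all 10 were found. Nuclei came from livers of male C57BL6/J mice that started the MASH (metabolic dysfunction-associated steatohepatitis) diet when 10 to 12 weeks old and stayed on it for 5 months (40 kcal% fat and 20 kcal% fructose with 2% cholesterol). There were 2 libraries of 3′ single-nucleus RNA-seq (snRNA-seq), 1 per genotype. The Flox library (titled WT) was from mice with the genotype *Themis* flox/flox and the HKO library from mice listed as *Themis* Alb-Cre, in which the albumin promoter drives Cre in hepatocytes. The diet was the same for both. Livers of several mice went into a library together, so that differences among animals cannot be told apart from differences among nuclei.

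Binding of growth hormone to its receptor GHR activates the kinase JAK2, which phosphorylates the transcription factors STAT5A and STAT5B. STAT5 then enters the nucleus, where it is known to switch on *Igf1*, *Igfals* and the feedback inhibitors *Socs2* and *Cish*, and to lower *Bcl6*, a repressor whose binding sites overlap those of STAT5. In rodents the hormone is released in pulses in males and more evenly in females, and this difference sets much of the sex bias of hepatocyte transcription, including that of the female-biased repressor *Cux2*.

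The libraries held 9363 and 10748 nuclei, with 58171337 and 40475938 UMIs (unique molecular identifiers, each standing for a captured transcript) and medians of 6216 and 2227.5 UMIs per nucleus in the Flox and HKO libraries. Told by marker UMIs, 6217 and 4802 nuclei were hepatocytes, with medians of 7531 and 5926.5 UMIs. *Themis*, the targeted gene, was at 159 CPM in Flox and 249 CPM in HKO hepatocytes, where CPM is a gene's UMI count scaled to the depth of the nuclei summed, as usual for such counts. It was thus higher and not lower in the library labelled HKO, so directions below are given by label and no exchange of labels is inferred; whether the 3′ reads cover the deleted part is not given in the sources used here. Barcodes shared by the libraries numbered 27. With 1 library per genotype no test between genotypes was possible: intervals are 95% limits that cover counting error only, and say nothing of the spread between animals.

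Among the members' start sites, those of *Cish* and *Bcl6* are shown because their windows hold the most copies of TTCNNNGAA, the palindromic core of the STAT site, which reads the same on both strands. Windows of 300 bases, 250 before and 50 after a start site, were found in RefSeq (GRCm38.p6) for 9 of the members. The motif was in at least 1 window of 3 of these 9 genes (*Bcl6*, *Cish* and *Igfals*), some of which have several windows. Counted by gene in the same way, it was in 8.155% of 8804 genes tested in hepatocytes. Counted by window, it was in 8.30% of all 32851 windows. At least 2 copies in the same window were found for *Cish* and *Bcl6*, in 0.477% of those 8804 genes and in 0.457% of all windows. In the *Cish* window the copies began at the first and the 12th base of the transcript, and in the *Bcl6* window, at an inner start site of the gene, at positions -168, -122 and -88 from it. Capitals mark the motif below, 5′ to 3′, on the plus strand at chr9:107296509-107296678 for *Cish* and on the minus strand at chr16:23981343-23981473 for *Bcl6*.
Cish: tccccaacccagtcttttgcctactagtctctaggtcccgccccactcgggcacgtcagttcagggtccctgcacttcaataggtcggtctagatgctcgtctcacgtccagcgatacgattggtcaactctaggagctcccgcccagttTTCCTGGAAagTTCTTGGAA
Bcl6: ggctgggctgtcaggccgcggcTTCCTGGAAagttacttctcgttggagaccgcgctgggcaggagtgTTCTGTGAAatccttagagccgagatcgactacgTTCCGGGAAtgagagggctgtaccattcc
These matches describe the letters of the windows, and binding was not measured. No copy was found in the windows of *Igf1*, *Ghr*, *Jak2*, *Stat5a*, *Stat5b* or *Cux2*, which says only that the letters are not in these bases.

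In hepatocytes the feedback inhibitors and *Igf1* were higher in the library labelled HKO, *Bcl6* was lower, and the receptor, the kinase and both STAT5 genes lay within 1.5-fold. Of the 9 members with at least 200 UMIs in hepatocytes of both libraries together, 3 were more than 1.5-fold higher in HKO and 1 was more than 1.5-fold lower. Each of the 9 also had 200 UMIs in either library alone. Among all 11391 genes that reached the minimum, 7.85% were as much higher and 9.89% as much lower. The median log2 ratio, taken after adding 1 CPM to each level, was 0.31 over the 9 members and -0.01 over all genes.

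**Figure D1:**
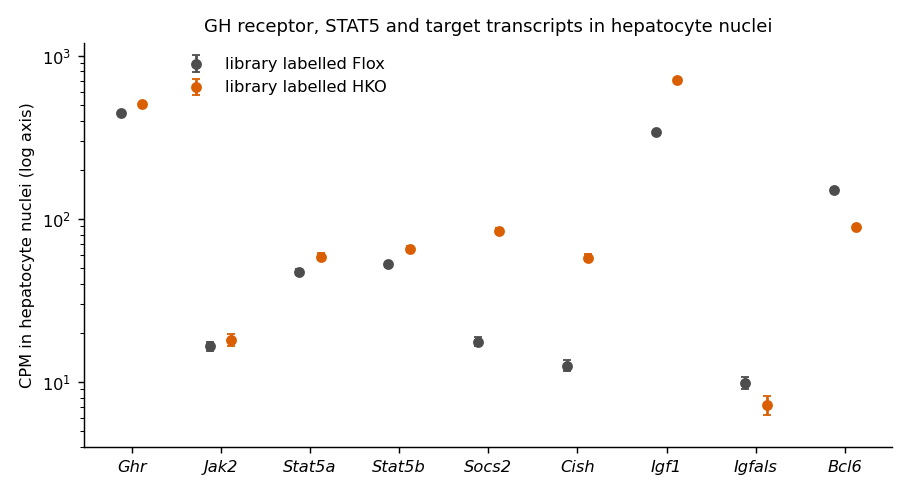
CPM of 9 members in hepatocyte nuclei of the libraries labelled Flox (grey) and HKO (orange), on a log axis; bars are exact 95% Poisson limits and are often smaller than the points. *Socs2* (17.7 and 84.5 CPM), *Cish* and *Igf1* sit higher in HKO, *Bcl6* lower, and the other members lie close together.

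The receptor *Ghr* (chromosome 15, 3317760 to 3583492, minus strand, GRCm38) stood at 446 CPM (440.5 to 452) in Flox and 503 CPM (495 to 511) in HKO hepatocytes. The ratio of HKO over Flox was 1.13 (1.10 to 1.15). *Jak2*, the kinase bound to the receptor (chromosome 19, 29251828 to 29313080, plus strand), was at 16.5 CPM in Flox and 18.1 CPM in HKO, and the interval of the ratio, 0.982 to 1.22, included 1. The transcripts up to STAT5 lay within 1.5-fold between the libraries, with *Stat5a* at 47.0 and 58.6 CPM (ratio 1.25, 1.17 to 1.33) and *Stat5b* at 52.7 and 65.4 CPM (ratio 1.24, 1.17 to 1.32). The STAT5 genes are neighbours on chromosome 11, *Stat5b* at 100780731 to 100850724 on the minus strand and *Stat5a* at 100859351 to 100885169 on the plus strand.

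*Socs2*, which encodes an inhibitor that targets the receptor for degradation (chromosome 10, 95385362 to 95417180, minus strand), had 887 UMIs in Flox and 2573 in HKO hepatocytes. That is 17.7 CPM (16.5 to 18.9) against 84.5 CPM (81.3 to 87.9), a ratio of 4.79 (4.43 to 5.17). *Cish*, a related inhibitor that competes for the activated receptor (chromosome 9, 107296026 to 107302784, plus strand), was at 12.6 CPM (11.6 to 13.6) against 57.7 CPM (55.0 to 60.4), a ratio of 4.58 (4.18 to 5.02). Both inhibitors thus differed between the libraries by similar factors, the intervals of which overlap.

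Among the secreted products, *Igf1* (insulin-like growth factor 1; chromosome 10, 87858265 to 87937042, plus strand) was at 339 CPM (334 to 344) in Flox and 710.3 CPM (701 to 719.8) in HKO hepatocytes, a ratio of 2.10 (2.06 to 2.14). *Igfals*, whose protein holds IGF1 in the circulating complex (chromosome 17, 24865997 to 24882010, plus strand), went the other way, at 9.85 CPM (495 UMIs) in Flox and 7.20 CPM (219 UMIs) in HKO, a ratio of 0.730 (0.620 to 0.858). When each nucleus was thinned to 1000 UMIs, the log2 ratio of *Igfals* was 0.10 and not -0.41, with limits of -0.56 to 0.79, so that its direction was not settled at this depth.

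*Bcl6* (chromosome 16, 23965052 to 23988852, minus strand) was at 150.5 CPM (147 to 154) in Flox and 88.5 CPM (85.2 to 91.9) in HKO hepatocytes, a 1.70-fold lower level. *Cux2* (chromosome 5, 121856366 to 122050102, minus strand) had 3 UMIs in Flox and 5 in HKO hepatocytes, close to the 3 UMIs taken as the limit of detection (0.0597 and 0.0986 CPM), and no direction is given for it. Of the 33 UMIs of *Cux2* in endothelial nuclei, 14 were from Flox and 19 from HKO.

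Levels per nucleus showed how these sums were made up. With each hepatocyte thinned to 3000 UMIs, which left 6034 Flox and 4271 HKO nuclei and left out 183 and 531, *Igf1* was seen in all but 48.2% of Flox and all but 24.5% of HKO nuclei. At least 5 *Igf1* UMIs were held by 3.35% of Flox and 13.2% of HKO nuclei, and the medians were 1 and 2 UMIs. *Socs2* had at least 2 UMIs in 0.580% of Flox and 6.04% of HKO nuclei, and *Cish* in 0.265% and 2.67%. *Ghr* was far more even, at a median of 1 UMI in both, with none in 27.7% and 25.2% of nuclei. *Bcl6* was unseen in 66.7% of Flox and 79.7% of HKO nuclei at this depth.

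Within the library labelled HKO, the inhibitors, *Igf1* and *Bcl6* were unevenly shared among hepatocytes at equal depth. Nuclei with a *Cish* UMI (627 of 4271) had *Socs2* at 191 CPM against 74.9 CPM in nuclei without, a ratio of 2.55 (2.24 to 2.89). *Igf1* was at 963 against 666 CPM (ratio 1.45, 1.37 to 1.52) and *Bcl6* at 50.5 against 93.5 CPM (ratio 0.540, 0.433 to 0.667). Split by *Socs2* (772 nuclei with a UMI), *Cish* was at 117 against 47.0 CPM, *Igf1* at 888 against 671 CPM and *Bcl6* at 40.2 against 97.6 CPM. The nuclei with inhibitor transcripts therefore had more *Igf1* and less *Bcl6*, while *Ghr* was at 483 against 506 CPM by *Cish* and 494 against 504 CPM by *Socs2*, with intervals of the ratio that included 1. *Stat5a* was lower in nuclei with *Cish*, at 47.3 against 62.1 CPM (ratio 0.762, 0.604 to 0.951). By *Socs2* its interval, 0.736 to 1.09, included 1, as did those of *Jak2* and *Stat5b* in both splits.

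Of 7 members with at least 200 UMIs among the thinned HKO nuclei, other than the gene that made the split, *Socs2* was more than 1.5-fold higher and *Bcl6* more than 1.5-fold lower in nuclei with *Cish*, against 1.04% and 1.80% of all 7402 genes tested. By *Socs2*, *Cish* was past 1.5-fold higher and *Bcl6* past 1.5-fold lower, against 1.36% and 2.13% of genes. *Onecut1*, a hepatocyte transcription factor gene on the list of growth hormone-responsive regulators, followed the inhibitors, at 420.5 against 166 CPM by *Cish* (ratio 2.54, 2.33 to 2.76) and 388 against 162 CPM by *Socs2*. Counts within a nucleus come from the same transcriptome and nuclei are not replicates, so these ratios describe this library.

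The part of depth, markers of other classes and zone in these splits was not tested, and their values are given here. Before thinning, the HKO nuclei with and without *Cish* had medians of 6044 and 6263.5 UMIs, and the summed markers of the other cell classes were at 216 and 190 CPM, those of hepatocytes at 9163 and 8886 CPM. Zone 3 nuclei made up 12.1% and 15.8% of nuclei with and without *Cish*, and 17.2% and 14.8% of those with and without *Socs2*. In nuclei outside zone 3 alone the ratios by *Cish* were 2.74 for *Socs2*, 1.44 for *Igf1* and 0.568 for *Bcl6*. The part played by single mice of the pool was not tested, since no label ties a nucleus to a mouse.

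The library labelled Flox gave another picture, with far fewer positive nuclei (219 with *Cish* and 313 with *Socs2* of 6034). *Socs2* was at 35.0 against 19.0 CPM by *Cish*, a ratio of 1.85 (1.15 to 2.82). *Bcl6* was lower in nuclei with *Cish*, at 111 against 155 CPM, but higher in nuclei with *Socs2*, at 208 against 150.0 CPM (ratio 1.38, 1.19 to 1.60). In HKO the ratio of *Bcl6* by *Socs2* was 0.412 (0.329 to 0.509), on the other side of 1. *Onecut1* was at 88.3 against 81.2 CPM by *Cish* in Flox, and the interval of that ratio, 0.822 to 1.41, included 1. Of the 7 members tested in Flox, *Jak2* and *Socs2* were past 1.5-fold higher by *Cish* and none was lower (3.67% and 6.58% of 8536 genes), and by *Socs2* only *Cish* was past 1.5-fold higher and none lower (2.26% and 4.58% of genes). Split by *Bcl6*, no member passed 1.5-fold in Flox (0.152% of genes higher, 0.211% lower), while in HKO *Socs2* and *Cish* were past 1.5-fold lower and none higher (0.594% and 0.149% of genes).

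**Figure D2:**
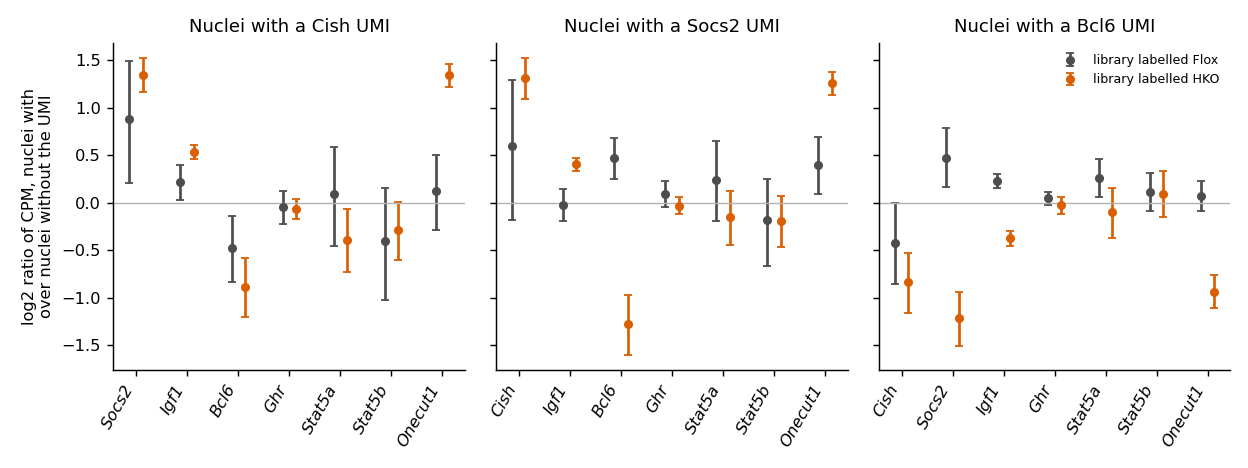
Log2 ratio of CPM in hepatocyte nuclei with a UMI of *Cish* (left), *Socs2* (middle) or *Bcl6* (right) over nuclei without it, each nucleus thinned to 3000 UMIs; points are genes on the horizontal axis, grey for Flox and orange for HKO, and bars are 95% limits of counting error. In HKO, *Socs2*, *Igf1* and *Onecut1* lie above 0 and *Bcl6* below 0 in nuclei with *Cish* (*Socs2* ratio 2.55), and *Bcl6* lies on opposite sides of 0 by *Socs2* in Flox and HKO.

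By position in the lobule, *Igf1* was the member that differed most. Zone 3 hepatocytes, those around the central vein, were told by *Glul* plus *Slc1a2* at or above 0.1% of UMIs, and numbered 1130 of 6217 in Flox and 788 of 4802 in HKO, with 87 and 60 hepatocytes within 20% of that limit. *Igf1* was at 133 CPM (125 to 142) in zone 3 and 375 CPM (369 to 381) in other hepatocytes of Flox, a 2.82-fold lower level in zone 3. In HKO the level was 379 CPM (361 to 398) in zone 3 and 765.5 CPM (755 to 776) elsewhere, 2.02-fold lower in zone 3. It was the only one of 9 members past 1.5-fold in the same direction in both libraries, where 4.05% of 11389 genes were as much lower and 3.14% as much higher in zone 3.

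No other member was past 1.5-fold in both libraries. *Ghr* was at 555 against 427 CPM in Flox, zone 3 over other ratio 1.30 (1.26 to 1.34), and at 526 against 499 CPM in HKO (1.05, 1.01 to 1.10). *Socs2* was higher in zone 3 in both, at 24.96 against 16.4 CPM in Flox, past 1.5-fold (1.53, 1.29 to 1.79), and 107 against 80.9 CPM in HKO (1.32, 1.19 to 1.46). With each nucleus thinned to 1000 UMIs, its log2 ratio was 0.395 (-0.276 to 1.06) in Flox and 0.156 (-0.212 to 0.513) in HKO. Both intervals included 0, as did that of *Ghr* in HKO (0.029, -0.127 to 0.183), so these directions were not settled at this depth. *Cish* in HKO stayed below 0 when thinned (-0.89, -1.54 to -0.34). *Cish* leaned to the other hepatocytes, at 11.8 against 12.8 CPM in Flox and 45.9 against 59.6 CPM in HKO, where the interval of the ratio (0.662 to 0.893) lay below 1. The 2 inhibitors thus did not share a zone pattern in HKO.

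*Stat5a* in zone 3 was 1.18 and 1.19 times its level in other hepatocytes, in Flox and HKO. For *Stat5b* these ratios were 1.115 (1.004 to 1.236) and 1.088 (0.960 to 1.229). *Igfals* had ratios of 0.748 (0.559 to 0.985) in Flox and 0.878 (0.568 to 1.31) in HKO, from 58 and 28 zone 3 UMIs. *Bcl6* had ratios of 1.06 and 1.10 with intervals that included 1, and so did *Jak2* at 1.07 and 1.02. Differences between the libraries kept their direction in both zones for the 4 members past 1.5-fold: the ratio of HKO over Flox in zone 3 and elsewhere was 4.27 and 4.94 for *Socs2*, 3.91 and 4.68 for *Cish*, 2.85 and 2.04 for *Igf1*, and 0.607 and 0.585 for *Bcl6*. For *Ghr* it was 0.949 (0.901 to 0.998) in zone 3 and 1.17 (1.142 to 1.195) elsewhere.

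**Figure D3:**
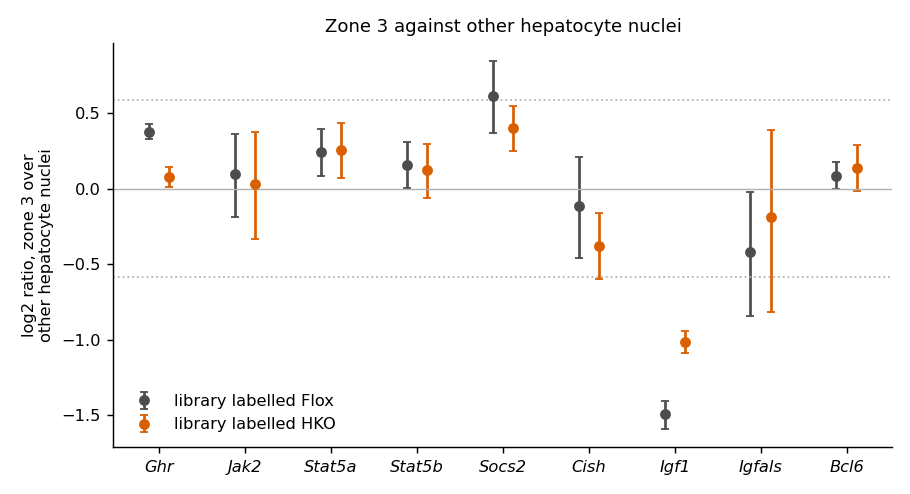
Log2 ratio of CPM in zone 3 over other hepatocyte nuclei for 9 members, in the libraries labelled Flox (grey) and HKO (orange); bars are 95% limits of counting error and dotted lines mark 1.5-fold. *Igf1* lies below the lower line in both libraries, at ratios of 0.355 and 0.496. *Ghr*, *Jak2*, *Stat5a*, *Stat5b*, *Socs2* and *Bcl6* lie above 0 in both, not all with limits clear of 0.

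Across the liver, 7 cell classes with at least 50 nuclei in each library were compared: hepatocytes, cholangiocytes, endothelial cells, stellate cells, macrophages, T/NK cells and B cells. Their marker lists were highest in the class they name for every marker, except that 8 of 9 hepatocyte markers were so in Flox (*Slc2a2* was higher in cholangiocytes). The same lists told the classes, so this is no separate check of them. Of the 9 members with at least 200 UMIs over all classes, *Ghr* and *Igfals* were highest in hepatocytes in both libraries, where 15.2% of 12792 genes had this pattern. For *Igfals* (9.85 and 7.20 CPM in hepatocytes) the upper limits in cholangiocytes (22.8 and 9.11 CPM), T/NK and B nuclei lay above these levels. Its rank against those classes is therefore not settled. Hepatocyte RNA was present outside hepatocytes: the 9 hepatocyte markers had medians of 9.09% to 13.6% of their hepatocyte level in endothelial, stellate and macrophage nuclei, from 2.46% for *Pck1* in Flox stellate nuclei to 42.9% for *Alb* in Flox endothelial nuclei.

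Read against these marker shares, *Ghr* in macrophages (7.96% and 6.61% of its hepatocyte level in Flox and HKO) was under the marker medians there. In stellate nuclei *Ghr* was at 161 CPM in Flox and 135.5 CPM in HKO, 36.1% and 26.9% of the hepatocyte level, beside highest marker values of 34.3% (*Alb*) and 29.9% (*Ttr*). Endothelial nuclei held 98.4 and 92.4 CPM of *Ghr*, 22.0% and 18.4% of the hepatocyte level. The hepatocyte markers there ranged from 3.71% to 42.9% in Flox and from 4.09% to 34.6% in HKO, and these shares lay within that range. The order in both libraries was hepatocyte, stellate, endothelial, then the remaining classes, whose intervals overlapped each other. The limits in B nuclei (3.83 to 114 CPM in Flox, 0.383 to 84.4 CPM in HKO) also overlapped those in endothelial nuclei. The order of these 2 classes is therefore not settled.

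*Jak2* had its lowest value in hepatocytes (16.5 and 18.1 CPM). In HKO the limits in cholangiocytes (13.7 to 40.4 CPM) and B nuclei (9.37 to 133 CPM) included the hepatocyte level. The lowest rank is therefore not settled in HKO. *Jak2* was at 102 and 85.1 CPM in stellate nuclei, 96.7 and 75.4 CPM in endothelial nuclei and 71.0 and 67.4 CPM in macrophages. Its highest value was in T/NK nuclei, at 168 CPM (104 to 257) and 92.8 CPM (49.4 to 159), from 21 and 13 UMIs. The T/NK limits overlapped those of stellate and B nuclei, so that this rank is not settled. *Stat5b* was less uneven, at 51.7 and 55.7 CPM in endothelial nuclei against 52.7 and 65.4 CPM in hepatocytes, and *Stat5a* in endothelial nuclei was at 23.1% and 26.7% of its hepatocyte level.

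The inhibitors had their highest levels outside hepatocytes. *Socs2* was highest in cholangiocytes, the cells of the bile ducts, at 229 CPM (161 to 316; 85 nuclei) in Flox and 508 CPM (453 to 568; 392 nuclei) in HKO. *Cish* was highest in T/NK nuclei, at 328 CPM (235 to 445) and 207 CPM (139 to 297), from 41 and 29 UMIs. Thinned to 1000 UMIs, 21.4% of Flox and 37.6% of HKO cholangiocytes had a *Socs2* UMI, against 1.74% and 7.91% of hepatocytes; without thinning the shares were 34.1% and 46.4% against 11.1% and 27.1%, at median depths of 1872 and 1470 against 7531 and 5926.5 UMIs.

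*Igf1* was abundant in macrophages as well as hepatocytes, at 422 CPM (389 to 457) in Flox and 494 CPM (466 to 524) in HKO macrophages. In Flox this was above the hepatocyte level of 339 CPM, and in HKO it was 69.6% of it. Thinned to 1000 UMIs, 31.2% of Flox and 34.9% of HKO macrophages had an *Igf1* UMI (45.8% and 41.4% without thinning), against 26.5% and 44.0% of hepatocytes (73.3% and 83.4% without thinning). In endothelial nuclei, at median depths of 1355 and 986.5 UMIs, the thinned shares were 4.42% and 5.58%. Cholangiocytes stood at 322 CPM in Flox and 214 CPM in HKO.

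**Figure D4:**
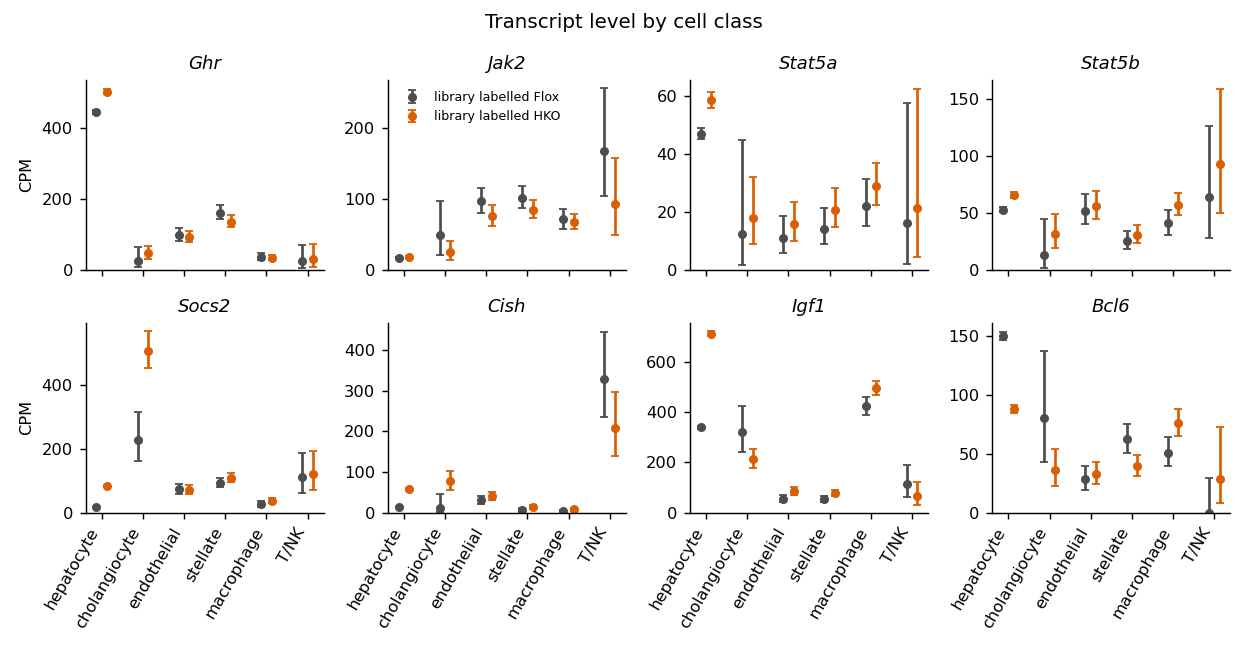
CPM of 8 members in 6 cell classes (horizontal axis) for the libraries labelled Flox (grey) and HKO (orange), on linear axes that start at 0; bars are exact 95% Poisson limits. *Ghr* is highest in hepatocytes, *Socs2* in cholangiocytes (229 and 508 CPM) and *Cish* in T/NK nuclei, and *Igf1* is high in hepatocytes and macrophages. *Jak2* has its lowest value in hepatocytes, with limits that overlap those of cholangiocytes in HKO.

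Between the libraries, the members were also compared within the other classes. In macrophages none of the 7 members with at least 50 UMIs was past 1.5-fold, against 5.27% of 8387 genes higher and 11.5% lower in HKO. *Igf1* had a ratio of 1.17 (1.06 to 1.30), *Stat5b* of 1.41 (1.03 to 1.96) and *Bcl6*, at 51.1 and 76.0 CPM, of 1.49 (1.12 to 1.98). *Bcl6* was thus higher in HKO macrophages and lower in HKO hepatocytes. *Socs2* was at 25.6 and 35.8 CPM in macrophages, with an interval of the ratio (0.937 to 2.13) that included 1 and lay below the 4.43 to 5.17 of hepatocytes.

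In stellate cells *Bcl6* was the only one of 7 members past 1.5-fold, lower in HKO at 39.4 against 62.3 CPM (ratio 0.633, 0.464 to 0.861), and none was higher (12.1% of 8117 genes lower, 6.36% higher). *Socs2* was at 93.7 and 109.5 CPM in stellate nuclei and 73.3 and 72.0 CPM in endothelial nuclei, with intervals of both ratios that included 1. *Igf1* was past 1.5-fold higher in HKO endothelial nuclei (55.0 and 84.2 CPM; ratio 1.53, 1.13 to 2.10), and no member was lower there (5.95% of 7426 genes higher, 9.55% lower). That level was 16.2% and 11.9% of the hepatocyte level, within the range of the hepatocyte markers in those nuclei, and the part of free hepatocyte RNA in it was not tested. In cholangiocytes *Socs2* was higher (ratio 2.22, 1.58 to 3.21) and *Igf1* lower (0.665, 0.479 to 0.936) in HKO, where 13.6% of 2826 genes were past 1.5-fold higher and 10.6% lower. In T/NK nuclei *Cish*, the only member with 50 UMIs, was past 1.5-fold lower in HKO (10.3% of 1044 genes lower, 7.57% higher), with an interval of the ratio, 0.379 to 1.04, that included 1. No member reached 50 UMIs in B nuclei (7.90% of 367 genes higher, 13.1% lower).

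The other genes of the pathway were taken from lists and read against the shares given above for all genes in hepatocytes (7.85% higher, 9.89% lower). Of 16 signalling partners with 200 UMIs (kinases, phosphatases, adaptors and related receptors), 1 was past 1.5-fold higher and 1 lower in HKO. The higher was *Prlr*, the prolactin receptor, which also signals through STAT5, at 111 against 366 CPM (ratio 3.31, 3.20 to 3.42). The lower was *Socs3*, an inhibitor of cytokine signals through STAT3, at 28.4 against 10.7 CPM, and next to it *Stat3* was at 123 against 82.2 CPM (ratio 0.667) and *Jak1* at 105 against 91.9 CPM. The next highest were *Irs1* (19.3 and 23.0 CPM) and *Ptpn2* (46.3 and 54.1 CPM), both within 1.5-fold, and the median log2 ratio of the list was -0.01.

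Of 7 genes of the IGF axis with 200 UMIs, *Igfbp1*, a binding protein that limits IGF1, was past 1.5-fold higher (29.1 and 52.2 CPM) and *Igfbp5* lower (5.33 and 1.91 CPM). *Igfbp5* had 268 UMIs in Flox and 58 in HKO, and so passed the minimum through Flox. *Igf2r* (19.4 and 28.3 CPM), *Insr* (309.6 and 366 CPM), *Igfbp2* (64.8 and 50.4 CPM) and *Igfbp4* (497 and 488 CPM) lay within 1.5-fold, and the median was 0.09. *Igf1r*, the receptor of IGF1, had only 78 and 80 UMIs in hepatocytes. Of 8 growth hormone-responsive regulators, 4 were higher and 1 lower, with a median of 0.52. The 4 were *Onecut1* (79.9 and 199 CPM; ratio 2.49, 2.39 to 2.59), *Trim24* (124 and 289.8 CPM), *Egr1* (7.13 and 15.2 CPM) and *Tox* (30.5 and 61.4 CPM), and the lower was the kinase gene *Pim1* (144 and 85.9 CPM). *Pim3* (258 and 227 CPM) and the hepatocyte factor *Hnf4a* (125 and 128 CPM) lay within 1.5-fold.

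Among the lists, hepatocyte genes known to be set by the sex-specific hormone pattern stood furthest apart. The lists were chosen with earlier results of these data known, so their counts describe these genes and are no test. Of 18 male-biased genes, 16 reached 200 UMIs, of which 14 were past 1.5-fold lower in HKO and none was higher; genes low in HKO could pass through Flox alone. Of the 12 with 200 UMIs in each library, a limit added after seeing the data, 10 were lower and none was higher. On the log2 scale with 1 CPM added, the lowest were the major urinary protein genes *Mup7* (216 and 2.27 CPM), *Mup11* (444 and 6.74 CPM) and *Mup1* (129 and 1.58 CPM), which share reads with near-identical copies, so that the split between them is uncertain. Without the added CPM the lowest ratio was that of *Hsd3b5*, a steroid dehydrogenase gene, with 656 UMIs in Flox and 2 in HKO (ratio 0.00503, 0.000608 to 0.0182). The members nearest to level were *Ugt2b1* (220.5 and 153 CPM), *Mup20* (1649 and 1134 CPM) and *Cyp2u1* (56.9 and 32.3 CPM), the last past 1.5-fold lower. *Mup20*, the pheromone darcin, (ratio 0.688) was thus nearer to level than the other listed genes of the family.

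Of 23 female-biased genes, 10 reached 200 UMIs and these were past 1.5-fold higher in HKO; 3 of them, *Cyp2a4*, *Cyp2b13* and *Slc22a27*, had under 200 UMIs in Flox and so passed through HKO. The other 7 had 200 UMIs in each library. With no minimum, 15 of 18 genes with any UMI were higher and 3 lower, the 3 (*Cyp2c69*, *Sult2a2* and *A1bg*) from 5 UMIs or fewer. *Cyp2a4* had 2 UMIs in Flox and 672 in HKO hepatocytes, a ratio of 555 with a lower counting limit of 153, *Cyp2b9* was at 4.66 and 73.0 CPM and *Slc22a27* at 1.11 and 17.6 CPM. The smallest differences were those of *Acot3* (12.3 and 21.3 CPM), *Cyp17a1* (7.78 and 30.6 CPM) and *Ntrk2* (9.33 and 37.0 CPM). The other 13 genes of the list did not reach 200 UMIs, and *Cyp3a16*, *Cyp3a41a*, *Cyp3a41b*, *Cyp3a44* and *Sult2a1* had no UMI in hepatocytes of either library. The female-biased list was therefore higher in part of its genes, and others had few UMIs or none. Such counts need not mean that the transcripts were absent. *Cyp2b9* and *Cyp2b13*, like *Cyp4a12a* and *Cyp4a12b* of the male-biased list, are near-identical copies whose counts can be split wrongly. Whether reads of *Cyp2a4* and of the other *Cyp* and *Sult* genes listed are shared with similar genes was not checked. The 2 UMIs of *Cyp2a4* in Flox lay under the 3 taken as the limit of detection, so the size of its ratio is uncertain.

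**Figure D5:**
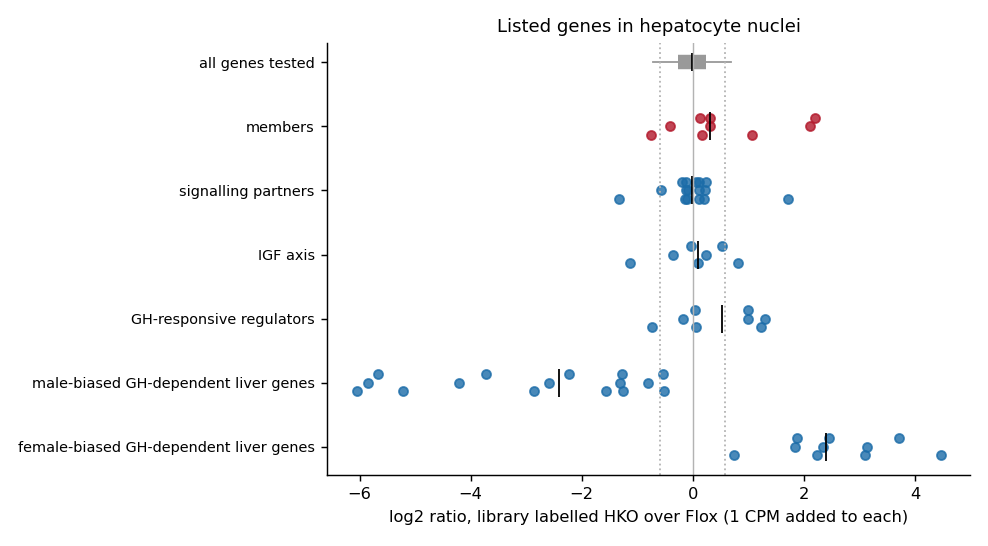
Log2 ratio of the library labelled HKO over Flox in hepatocyte nuclei, 1 CPM added to each; each point is a gene with at least 200 UMIs, black ticks are list medians, dotted lines mark 1.5-fold, and the grey bar and line span the middle 50% and 90% of all genes tested. Members reach from -0.76 (*Bcl6*) to 2.20 (*Socs2*), the male-biased genes shown lie below 0 and the female-biased above it; genes low in either library could reach 200 UMIs through the other.

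Both libraries carried male transcripts. The 4 Y-linked genes *Ddx3y*, *Eif2s3y*, *Kdm5d* and *Uty* summed to 564 CPM (557 to 570.3) in Flox and 677 CPM (668 to 687) in HKO hepatocytes, and 95.9% and 93.5% of hepatocytes had a UMI of at least 1 of them. *Xist*, made by the inactive X chromosome of females, had 65 and 64 UMIs in all hepatocytes (1.29 and 2.10 CPM). Hepatocytes with *Xist* and no Y-linked UMI numbered 3 in Flox and 2 in HKO, too few to compare the members between them and the nuclei with Y-linked UMIs.

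Over the 14 class-by-library levels (log2 of CPM plus 1), the genes most like *Ghr* were *Slc39a2*, *Gm14327* and *Exd1* (Pearson r 0.961, 0.956 and 0.949). Those most like *Igf1* were *Abcc3*, *Wdr4* and *Mocs1* (r 0.931, 0.930 and 0.928), and those most like *Bcl6* were *BC024978*, *Ctbs* and *9330151L19Rik* (r 0.954, 0.949 and 0.920). The 14 values share libraries and depth, and *Cux2* had too few UMIs to be ranked.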

How the data were processed

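For each library the authors deposited a matrix of UMI counts, unnormalized, made per the labels with Cell Ranger 8.0.1 on GRCm38, with intronic reads excluded after the study's methods. Nuclei with at least 300 detected genes were kept. A nucleus was a hepatocyte where hepatocyte markers made up at least 0.25% of UMIs and no other list 0.1%, and another class where that list made up at least 0.15%, at least 3 UMIs and at least 2 times any other non-hepatocyte list, with hepatocyte markers under 0.5%. Class names stand for resemblance by these markers. These limits were set after seeing the marker shares: 16 Flox and 96 HKO nuclei lay within 20% of the hepatocyte limit, and 657 and 1240 stayed unassigned. No doublet caller was run here. The study's methods name DoubletFinder and manual curation; whether these came before the deposited matrices is not given in the sources used here, and barcodes under the study's limit of detected genes were still in them.

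Counts were summed per class and library and divided by their total. Limits are exact Poisson limits for levels, exact binomial (Clopper-Pearson) limits for shares, and conditional binomial limits for ratios. A gene past 1.5-fold was counted only with at least 200 UMIs in hepatocytes or 50 in another class; this is a size and no test. The calculation was tested on simulated data. Python 3.11.15, numpy 2.4.6, scipy 1.17.1 and pandas 2.3.3 were used, and edgeR 4.0.16 for TMM factors alone. Gene positions are those of GENCODE on GRCm38.

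Every member was named, and of each list the 3 genes with the highest and the 3 with the lowest log2 ratio (1 CPM added); *Igf1r*, *Tox*, *Hsd3b5*, female-biased genes with few or no UMIs and *Onecut1* in the splits by nucleus were added after their values were seen, as were the splits themselves. Members and lists were chosen with earlier results of these data known.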

Additional observations from a re-analysis of the deposited data

Results flagged for a closer look

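Some members moved in opposite directions in groups of nuclei under the same contrast, with counting limits on opposite sides of 1; the differences themselves were not tested, since there was 1 library per genotype. Between the libraries, *Igf1* was higher in HKO hepatocytes (ratio 2.10) and lower in HKO cholangiocytes (0.665). *Bcl6* was lower in HKO hepatocytes (0.588) and higher in HKO macrophages (1.49). The ratio of *Ghr* was 0.949 in zone 3 hepatocytes and 1.17 in the other zones.

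Between hepatocyte nuclei of 1 library, *Bcl6* in nuclei with a *Socs2* UMI over those without was at a ratio of 1.38 in Flox and 0.412 in HKO. In nuclei with a *Bcl6* UMI the ratio of *Socs2* was 1.39 in Flox and 0.429 in HKO, and that of *Igf1* was 1.17 in Flox and 0.770 in HKO.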

How the results depend on the processing

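No paired analysis was possible because there was 1 library per genotype and the labels carry no replicate numbers. For the same reason no library could be left out. The 3 members past 1.5-fold higher and the 1 lower in hepatocytes were counted alike under each of the alternatives run for the count (other limits on nuclei, marker shares, zones, scaling and thinning, and, added after seeing the data, doubled marker shares, the shared barcodes left out and 200 UMIs in each library), except that with no minimum of UMIs 4 were higher, *Cux2* with 8 UMIs being added. The log2 ratio ranged from 1.77 to 2.27 for *Socs2*, 1.58 to 2.19 for *Cish*, 0.954 to 1.503 for *Igf1* and -0.87 to -0.70 for *Bcl6*. *Ghr* turned to -0.076 in zone 3 nuclei alone and *Igfals* to 0.10 with thinning to 1000 UMIs. With 200 UMIs asked of each library, 0 genes of the IGF axis were lower, *Igfbp5* being left out. With TMM factors 2 signalling partners were past 1.5-fold lower, and with no minimum of UMIs 6 genes of the IGF axis were higher and 3 female-biased genes lower; the latter counts include genes with few UMIs by construction. The log2 ratio of Y-linked transcripts, 0.26 for their sum, was 0.37 for *Ddx3y*, 0.11 for *Eif2s3y*, 0.22 for *Kdm5d* and 0.33 for *Uty* alone. The HKO library had fewer UMIs per nucleus, and B and T/NK nuclei were too few for most members.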
